A study of Mus musculus with 10 samples.

Results

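The genes described here are 9 members of the PRAME family of the mouse, made up of the oogenesins Oog1, Oog2, Oog3 and Oog4 and the PRAME-like genes Pramel1, Pramel4, Pramel5, Pramel6 and Pramel7. They were chosen by gene symbol, with earlier H3K4me3 results of these same libraries known, and every 5 kb window assigned to one of them was taken. This gave 24 windows out of 544879 in the genome-wide table, between 2 and 4 for each gene. The choice set no limit on any value, so no member lies just inside or outside a threshold. Since differences between the genotypes were in view when the genes were chosen, H3K4me3 differences are given as a description, without a p-value for the set. Which windows pass a genome-wide model is stated beside the share of all windows that pass, and is not evidence about the genes.

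Trimethylation of histone H3 at lysine 4 (H3K4me3) was profiled by ultra-low-input native ChIP-seq in fully grown germinal vesicle (GV) oocytes, taken at 21 days of age from C57BL6 females (C57BL/6OlaHsd in the study's methods) and pooled to about 200 per sample. Females of both groups carried floxed Setd1b alleles, and the conditional knockout (cKO) was also positive for Gdf9-Cre, whereas the labels give the control (WT) as floxed and Cre negative. The study's breeding scheme also allows controls that carry Gdf9-Cre and a wild-type Setd1b allele, so which controls were pooled is taken from the labels alone. Gdf9-Cre is driven by an oocyte promoter and acts from early folliculogenesis, so the oocytes lost SETD1B, an H3K4 methyltransferase, while they were growing. By the labels, the control differs from the knockout in Cre as well as in Setd1b. There were 3 H3K4me3 libraries for each genotype (cKO replicates 1, 3 and 4; WT replicates 1, 2 and 4) and 2 input libraries for each, made from chromatin that was not precipitated (replicates 1 and 4 of both). In pools of oocytes, fewer cells carrying the mark at a locus and less of it in each cell cannot be told apart.

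PRAME family proteins are folded from leucine-rich repeats and resemble the human melanoma antigen PRAME. Several of them act as substrate receptors of cullin-RING ubiquitin ligases. The family has grown by tandem duplication in rodents, and its genes are mostly active in germ cells and in the early embryo. The oogenesins are known for expression in oocytes and cleavage-stage embryos, Pramel6 and Pramel7 for the inner cell mass and naive embryonic stem cells, and Pramel1 for male germ cells. Because copies lie close to each other and resemble each other, a short read can match several of them, and such reads are lost when alignments of low mapping quality are removed.

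The H3K4me3 libraries held 10856015 to 32775874 reads in windows and the inputs 20756128 to 26566505. The targeted gene set the genotypes apart. In the window after the annotated start of Setd1b (GRCm38 chr5:123145001-123150000), normalized RPKM was 2.17, 3.21 and 3.25 in cKO and 8.34, 9.69 and 7.37 in WT. A window of this size does not resolve the deleted part of the gene. The start windows of 10 oocyte markers had a median of 6.11 normalized RPKM in WT and 5.04 in cKO. Those of 11 granulosa and other somatic markers had medians of 2.26 (range 0.870 to 5.90) and 2.03 (range 1.17 to 7.06). Of the somatic markers, 9 of 11 had a higher mean in cKO, among them Foxl2 (7.06 against 4.21) and Inhba (6.71 against 5.90), and 2 a lower one. Of the oocyte markers 4 of 10 were higher. Of all 48576 start windows, 24646 had a lower mean in cKO. On this scale 0 is not the level of an empty window, as windows with no read averaged -0.310 in cKO and 0.358 in WT. Whether other cells had a part in the values below was not tested.

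All 9 genes had a RefSeq promoter of 300 bases (GRCm38.p6), from 250 bases before to 50 bases after the start. The promoters of Oog4 (chr4:143450275-143450574, minus strand), Oog2 (chr4:144190467-144190766, plus strand) and Oog3 (chr4:144162602-144162901, minus strand) are shown because these related genes had the highest WT start levels in normalized RPKM, with cKO levels given below. That of Pramel6 (chr2:87506315-87506614, plus strand) is shown as a relative on another chromosome, and that of Pramel1 (chr4:143394191-143394490, plus strand) as the CpG-rich member. Each is written 5′ to 3′ along the gene, with CpG dinucleotides in capitals.
Oog4: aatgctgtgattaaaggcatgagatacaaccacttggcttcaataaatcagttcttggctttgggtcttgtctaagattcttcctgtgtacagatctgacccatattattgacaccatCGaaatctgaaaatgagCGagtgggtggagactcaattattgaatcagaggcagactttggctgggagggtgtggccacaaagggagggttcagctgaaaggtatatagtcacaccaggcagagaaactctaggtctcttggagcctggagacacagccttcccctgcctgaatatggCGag
Oog2: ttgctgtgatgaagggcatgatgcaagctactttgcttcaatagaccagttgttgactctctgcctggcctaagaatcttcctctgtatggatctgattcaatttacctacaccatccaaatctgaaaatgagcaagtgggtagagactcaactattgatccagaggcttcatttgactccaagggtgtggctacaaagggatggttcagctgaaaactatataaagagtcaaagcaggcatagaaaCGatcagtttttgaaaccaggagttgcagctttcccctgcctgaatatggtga
Oog3: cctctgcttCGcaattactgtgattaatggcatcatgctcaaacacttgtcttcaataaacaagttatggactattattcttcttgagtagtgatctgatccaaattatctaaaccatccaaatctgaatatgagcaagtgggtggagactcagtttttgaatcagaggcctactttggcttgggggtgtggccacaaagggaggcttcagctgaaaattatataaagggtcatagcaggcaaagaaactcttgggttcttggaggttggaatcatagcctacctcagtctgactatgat
Pramel6: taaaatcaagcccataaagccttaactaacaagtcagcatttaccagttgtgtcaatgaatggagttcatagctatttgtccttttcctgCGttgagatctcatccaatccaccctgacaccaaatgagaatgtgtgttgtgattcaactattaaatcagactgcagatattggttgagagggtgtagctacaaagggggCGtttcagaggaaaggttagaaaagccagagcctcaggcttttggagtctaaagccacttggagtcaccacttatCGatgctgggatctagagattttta
Pramel1: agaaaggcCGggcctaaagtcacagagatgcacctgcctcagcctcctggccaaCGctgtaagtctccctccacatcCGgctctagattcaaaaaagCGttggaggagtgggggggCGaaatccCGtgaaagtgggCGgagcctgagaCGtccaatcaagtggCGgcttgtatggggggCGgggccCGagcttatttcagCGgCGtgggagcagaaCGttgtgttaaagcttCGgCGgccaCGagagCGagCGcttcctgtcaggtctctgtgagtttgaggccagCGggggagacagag
The 3 oogenesin promoters held few CpGs, 3 in Oog4 and 1 each in Oog2 and Oog3, against a median of 7 over 32851 promoters of this length. Pramel6 held 3 and Pramel1 20. Among the genes not shown, Oog1 and Pramel7 held 1, Pramel4 2 and Pramel5 none (0). In a global alignment Oog2 and Oog4 were identical at 78.0% of the 300 positions, Oog3 and Oog4 at 77.7%, and Oog2 and Oog3 at 73.3%. The pair with the most shared sequence was Pramel4 and Pramel5 at 89.0%, and the lowest pair, Pramel1 and Pramel7, stood at 55.0%. The letters TATAAA, searched on both strands, started 30 bases before the start in Oog2 and 29 bases before it in Oog3, and no other member had them. Over all promoters 13.6% held them. The letters TAATTG, a homeodomain core, were found in Oog3 and Oog4 and in 8.0% of all promoters, TAATTA in no member and in 5.29%, and the E-box CANNTG in all 9 and in 72.3%.

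The input was examined first, as the measure of how well reads could be placed on each copy. A window of the table had a median input signal of 2.07, averaged over the 4 inputs. Of the 24 windows, 20 lay between 0.670 and 1.29 times that median, and the other 4 were under 0.5 times it, as were 11.4% of all windows. These 4 were both windows of Oog1 and the second and last windows of Pramel4. To set this beside the sequence, the share of 75-base read starts that occur identically elsewhere in the genome was counted in each window. It was 54.7% to 90.7% in the 4 windows with low input and at most 31.7% in the other 20. In a sample of 531 windows across the genome the median share was 1.10%. Over the 24 windows input fell with the copied share (Spearman rho = -0.86, a description over windows that share the same 4 libraries).

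The genes differed in how much of their sequence was copied. The Oog1 windows (chr12:87600001-87610000) had 56.7% and 69.8% of starts copied and input signals of 0.907 and 0.493. Pramel4 (chr4:144055001-144070000) had 31.7%, 54.7% and 90.7%, and its input fell across the gene from 1.66 through 0.700 to 0.0794. Of the starts in its last window, 75.5% were found in a single window of the neighbouring gene Gm13102 and 17.6% in one of Pramel5. Pramel5 itself had between 7.34% and 20.6% copied, and Oog2 8.52% and 14.2%. The windows of Oog4, Pramel6, Pramel7 and Pramel1 had at most 5.84%.

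**Figure D1:**
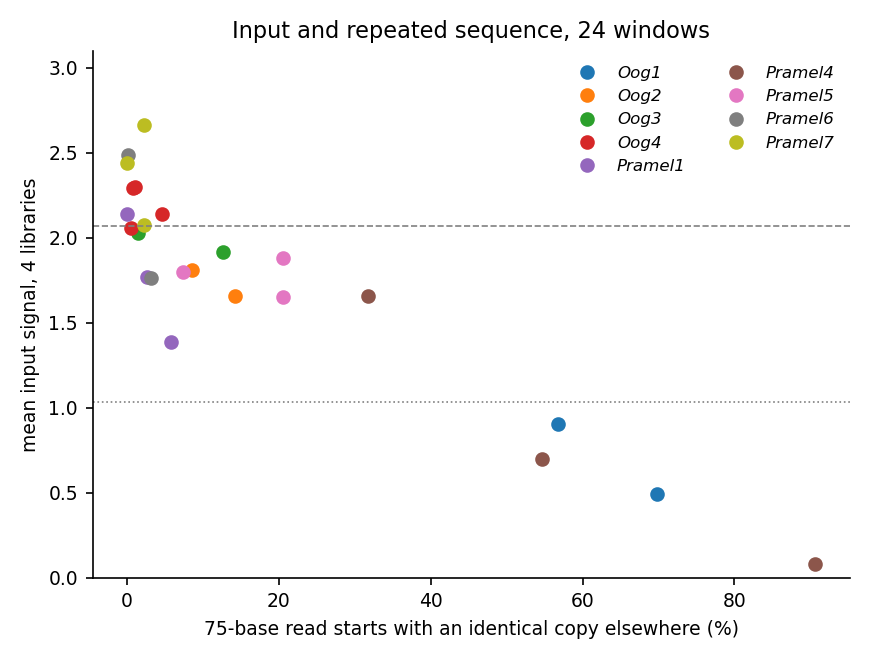
Mean input signal of the 4 input libraries against the percentage of 75-base read starts with an identical copy elsewhere in the genome, for the 24 windows coloured by gene. The dashed line is the median window of the table (2.07) and the dotted line 0.5 times that; the windows of Oog1 and the last 2 of Pramel4 lie under the dotted line, at 54.7% copied starts or more.

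Input differed little between the genotypes. Summed over the 24 windows it was 41.4 and 42.0 in cKO replicates 1 and 4 and 42.3 and 42.8 in WT replicates 1 and 4, so that both cKO inputs were slightly under both WT inputs (means 41.7 and 42.5). An exact two-sided permutation test gave p = 0.333, which is the smallest that 2 against 2 libraries allow. This test could not have reached 0.05 with any values.

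In WT oocytes the 9 start windows spanned a wide range of H3K4me3. Oog4 stood alone at the top with 7.12 ± 0.57 normalized RPKM (SD, n = 3), higher than 99.5% of all windows. Oog3 (4.59 ± 0.39) and Oog2 (4.58 ± 0.24) followed and overlapped each other, higher than 91.9% and 91.8% of windows. Pramel1 came next with 3.85 ± 0.22, its 3 libraries all below those of Oog2 and Oog3. Pramel6 (2.81 ± 0.79), Pramel7 (2.75 ± 0.29) and Oog1 (2.53 ± 0.43) overlapped, as did Oog1 and Pramel4 (1.98 ± 0.32). Pramel5 was lowest, at 0.897 ± 0.051. Oog1, Pramel4 and Pramel5 are ranked here with part of their reads missing, as 56.7%, 31.7% and 20.5% of starts in these windows were copied. On this scale a window without any read is not at 0 but at an offset of each library, between -1.02 and 0.810, so differences are given and not folds, and an empty window has a difference of -0.67 between the genotypes from the offsets alone.

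**Figure D2:**
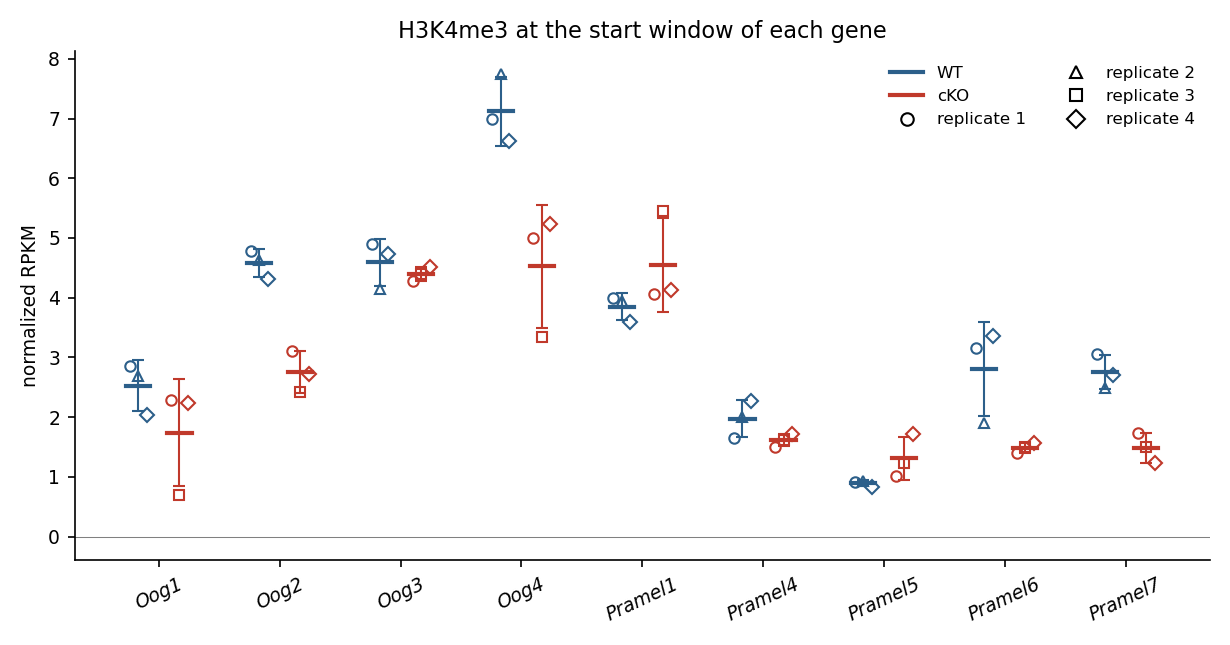
H3K4me3 in normalized RPKM in the start window of each of the 9 genes, with 1 symbol for each library (shape gives the replicate number), the bar at the group mean and error bars of 1 SD (n = 3). All cKO libraries lie below all WT libraries for Oog2, Oog4, Pramel6 and Pramel7 and above them for Pramel1 and Pramel5, and the groups overlap for Oog1, Oog3 and Pramel4.

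Oog4 and Oog2 had less H3K4me3 at the start in the cKO. At Oog4 (chr4:143450001-143455000) the cKO libraries had 5.0, 3.34 and 5.23 normalized RPKM in replicates 1, 3 and 4, and the WT libraries 6.98, 7.75 and 6.62 in replicates 1, 2 and 4. All 3 cKO values lay under all 3 WT values, and the means differed by -2.59 (4.52 ± 1.03 against 7.12 ± 0.57). The reads behind these values numbered 76, 33 and 123 in cKO and 118, 80 and 211 in WT. Replicate 3 of the cKO was the lowest, and without it the difference was -2.0. Relative to input, the start had an RPM (reads scaled to the total of the library) of 1.88 for each unit of input signal in cKO and 3.31 in WT. The other 3 windows of Oog4 lie downstream of the start window, the last reaching past the end of the gene (143437164). They carried less of the mark (WT means 3.02, 1.38 and 1.40) and overlapped between genotypes, with differences of -0.39, -0.16 and 0.43. Leaving out single libraries gave -0.81 to -0.17, -0.48 to 0.17 and 0.15 to 0.87 in these windows.

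At Oog2 (chr4:144190001-144195000) the start window had 3.11, 2.42 and 2.72 in cKO and 4.79, 4.63 and 4.32 in WT. The 2 groups were each tight and did not overlap, with a difference of -1.83 (2.75 ± 0.35 against 4.58 ± 0.24). RPM over input was 1.46 in cKO and 2.63 in WT. This was the single member window called by limma at an adjusted p under 0.05, in a comparison that called 1.02% of all windows and 1.53% of all start windows. The second window of Oog2, which holds the end of the gene, had 0.974 in cKO and 1.21 in WT and overlapped. In RPM its cKO mean was the higher, at 0.966 against 0.888, also with overlap.

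Oog3, the next oogenesin upstream of Oog2 and on the other strand, had no separation of the genotypes. Its start window (chr4:144160001-144165000) had 4.28, 4.4 and 4.51 in cKO and 4.89, 4.15 and 4.74 in WT. The cKO values fell inside the WT range, and the difference was -0.20, or -0.42 to -0.05 when each library was left out in turn. Its second window had 1.46 against 1.24, also overlapping. The difference between Oog2 and Oog3 was not tested.

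Oog1, known for expression from early meiosis in the ovary, had 2.28, 0.701 and 2.24 in cKO and 2.85, 2.69 and 2.04 in WT at its start (chr12:87600001-87605000). The groups overlapped, and the difference of -0.78 became -0.26 without cKO replicate 3, which had 13 reads there. The window has low input. In RPM, which has no offset, the means were 1.77 in cKO and 2.44 in WT, and these groups overlapped too. The second window of Oog1 had 0.681 in cKO and 1.04 in WT and overlapped as well. In RPM the cKO mean there was the higher, at 0.858 against 0.735, also with overlap.

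Pramel6 and Pramel7, neighbours on chromosome 2 that have been linked to naive pluripotency, had lower cKO means in all 5 of their windows, with no overlap in 4. Limma called none (0) of the 5 in the fit reported. Pramel6 had 1.40, 1.49 and 1.57 at its start (chr2:87505001-87510000) in cKO and 3.16, 1.91 and 3.36 in WT. Its second window had 1.73, 1.89 and 1.47 in cKO and 2.75, 3.56 and 3.66 in WT. Neither window overlapped, and the differences were -1.33 and -1.63, the latter the largest at any member window away from a start. Pramel6 was the only member with every window lower in all cKO libraries than in all WT libraries.

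Pramel7 has an annotated start in the window chr2:87495001-87500000 in GENCODE and in chr2:87490001-87495000 in RefSeq. The GENCODE window had 1.73, 1.49 and 1.23 in cKO and 3.06, 2.49 and 2.70 in WT. The RefSeq window had 1.67, 2.29 and 2.72 in cKO and 2.90, 3.27 and 4.14 in WT. The groups did not overlap in either window, whichever start is taken, with differences of -1.27 and -1.21. In the last window of the gene they overlapped (1.69 against 2.33), and the difference of -0.64 became -0.35 without WT replicate 4. The WT means of the 5 windows of both genes lay between 2.33 and 3.44, so the start windows did not stand out from the other windows. The second window of Pramel6 and the last of Pramel7 lie mostly beyond the gene ends (87510872 and 87489087).

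Pramel1, at the left end of the cluster on chromosome 4, had the higher cKO means in normalized RPKM, and no fit called any of its windows. Its start window (chr4:143390001-143395000) had 4.06, 5.45 and 4.12 in cKO and 4.00, 3.95 and 3.60 in WT. Each cKO library was above each WT library, by a narrow margin apart from cKO replicate 3, and the difference of 0.69 became 0.24 without that replicate. The second window had 2.17, 3.61 and 2.29 in cKO and 1.91, 1.81 and 1.83 in WT, a difference of 0.84 that became 0.38 without cKO replicate 3. In the last window of the gene the groups overlapped, at 4.06 and 3.92. That last window holds Pramel1 only up to 143400160, and GENCODE places an unprocessed pseudogene, Gm13045 (chr4:143402344-143403413), within it. The start window of Pramel1 held 89 CpGs, against 10 to 34 in the 21 windows of the other genes, and 4.26% of its read starts were also found at Anp32b. GENCODE places a processed pseudogene, Anp32b-ps1 (chr4:143389659-143390416), across the left edge of this window. A value for the whole window does not separate it from the promoter of Pramel1.

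Pramel5 and Pramel4, which have nearly the same promoter, had the lowest WT means at the start among the genes described here. The Pramel5 start (0.897) was higher than 19.6% of all windows in WT, and the Pramel4 start (1.98) higher than 62.9%. Part of the reads is missing from both, as 20.5% and 31.7% of starts in these windows were copied. Pramel5 had 1.01, 1.23 and 1.71 in cKO at its start (chr4:144280001-144285000) and 0.915, 0.937 and 0.839 in WT, a difference of 0.42 that became 0.22 without cKO replicate 4. These values rest on 4, 17 and 50 reads in cKO and on 2, 10 and 18 in WT. In RPM the groups overlapped (0.313, 1.43 and 1.72 against 0.153, 0.921 and 0.549). Pramel4 had 1.51, 1.62 and 1.71 at its start in cKO and 1.65, 2.01 and 2.28 in WT, which overlapped. Its second window had 0.760 in cKO and 0.984 in WT, but in RPM the cKO mean was the higher (0.833 against 0.658), with overlap on both scales. The last window of Pramel4 had at most 3 reads in any H3K4me3 library, so no level could be given for that part of the gene. The second and last windows of Pramel5, in order along the gene, had 1.12 and 1.39 in cKO and 1.28 and 1.15 in WT and overlapped.

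Over the 24 windows, 17 had a lower mean in cKO, 6 had every cKO library below every WT library and 3 had every cKO library above, which left 15 in which the groups overlapped. Of all windows in the table, 9.95% met the first of these separations and 9.88% the second. A lower mean in cKO, in normalized RPKM, was found in 306506 of all 544879 windows, 36279 of them without any H3K4me3 read. Among start windows, 4 of 9 members were below and 2 above, beside 9.38% of all 48576 start windows below and 12.7% above. These counts come from the contrast that was known when the genes were chosen, and nothing is read from them about the set. On the RPM scale, the same 6 windows (at Oog4, Oog2, Pramel6 and Pramel7) stayed below, where 7.89% of all windows did. Only the second window of Pramel1 stayed above, where 7.08% of all windows did, so the separation at the starts of Pramel1 and Pramel5 was seen in normalized RPKM and not in RPM. Their mean RPM was 4.06 in cKO against 3.93 in WT at Pramel1 and 1.15 against 0.541 at Pramel5. On the same reads edgeR gave Pramel1 a log2 difference of -0.01 at the start, 0.44 in the second window and -0.16 in the last, where mean RPM was 3.59 against 3.87. Tests with other models called other member windows, and neither called the start of Oog2. Limma with an intensity trend called 2 member windows (the start of Oog4 and the second window of Pramel6) in a comparison that called 3.58% of windows, and edgeR on whole reads called 2 (both of Pramel6), with 2.29% of windows called.

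**Figure D3:**
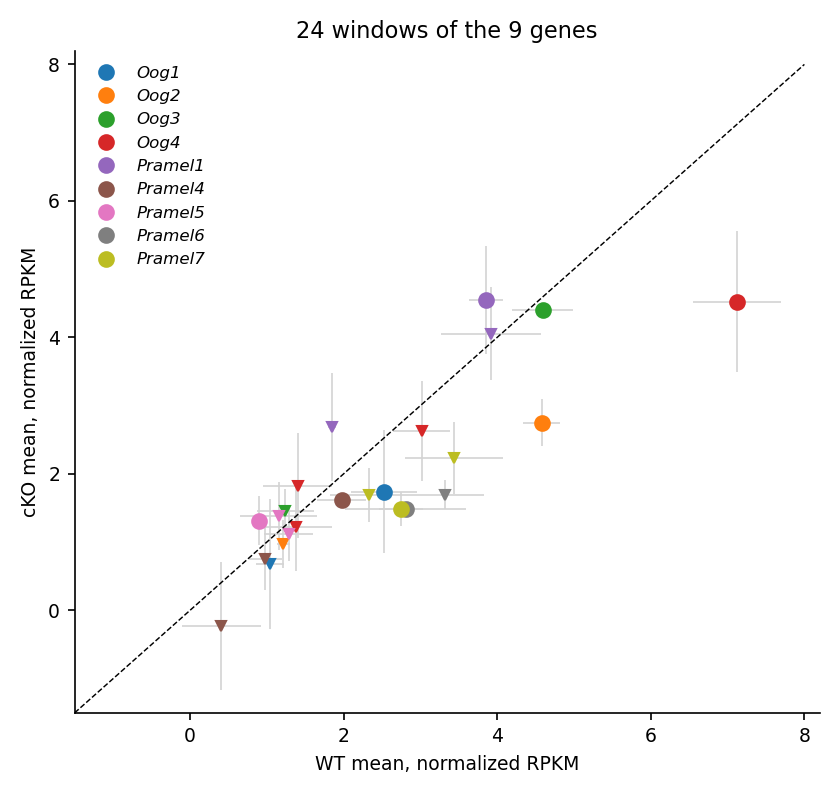
Mean H3K4me3 in cKO against WT, in normalized RPKM, for the 24 windows of the 9 genes (circles, start windows; triangles, other windows; grey bars, 1 SD over 3 libraries in each direction; dashed line, equal values). The starts of Oog4 and Oog2 and the windows of Pramel6 and Pramel7 lie under the line, the start of Oog3 lies just under it (4.39 against 4.59) and Pramel1 lies above it.

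Averaged over the 24 windows, the libraries had 1.98, 1.94 and 2.09 normalized RPKM in cKO and 2.43, 2.44 and 2.51 in WT, a difference of -0.46. Over all windows the difference was -0.08. At the 9 starts the means were 2.65 ± 0.17 in cKO and 3.46 ± 0.12 in WT, a difference of -0.81 beside 0.01 over all start windows. The 15 member windows away from a start had a smaller mean difference, -0.25. The profile over the 24 windows was more alike among WT libraries (Pearson r 0.926 to 0.935) than among cKO libraries (0.756 to 0.890), as a description over windows of the same libraries. All pairs with cKO replicate 3 lay between 0.643 and 0.836, and cKO replicates 1 and 4 correlated at 0.890. Across genotypes, cKO replicate 1 with WT replicate 1 reached 0.901, above every cKO pair. Averaged over its own windows, each of Oog2, Oog4, Pramel6 and Pramel7 was lower in every cKO library than in every WT library, and the other 5 genes overlapped. The share of all genes that separate in this way was not computed, so nothing is read from this count. The difference was -1.48 for Pramel6, -1.04 for Pramel7, -1.03 for Oog2 and -0.68 for Oog4, whose 3 other windows diluted the start. It was 0.56 for Pramel1, 0.16 for Pramel5 and 0.01 for Oog3, and that of Pramel5 lay between 0.02 and 0.32 when each library was left out in turn.

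The windows around the starts were compared in the same way. At Oog4 the window just upstream of the start, 5 kb away, had a WT mean of 7.01, about as high as the start itself, but the cKO mean there was 6.66 and the groups overlapped. Further upstream, at 15 kb, the cKO mean was the higher of the 2 (4.99 against 3.71). The groups thus separated in the start window of Oog4 and overlapped in the adjoining window, and the difference between these windows was not tested. At Oog2 the domain also ran upstream of the start, and the cKO means were lower in each of the 5 windows upstream, but the groups separated in the window at 10 kb alone (-1.59) and overlapped in the other 4. The windows at 15 and 20 kb had low input (0.643 and 0.887). Differences larger than those of the gene itself were also found nearby. The window 15 kb upstream of the Pramel1 start window had 4.49 in cKO and 2.35 in WT without overlap, and that 5 kb upstream of Pramel4 had 1.61 and 3.1 without overlap. On chromosome 2 the cKO means were lower in each window of the 30 kb that hold Pramel7 and Pramel6. The 6 windows averaged 1.66, 1.82 and 1.99 in cKO and 2.90, 2.72 and 3.53 in WT, and 4 of them had no overlap. The genotypes met at a peak 10 kb downstream of the Pramel6 start window, where the means were 5.98 in cKO and 5.93 in WT. Lower cKO means were not limited to these genes. The 3 windows beyond Pramel7 had differences of -0.73, -0.78 and -0.95 and overlapped, and the window of Olfr153, 25 kb downstream of the Pramel6 start window, had -1.73 without overlap.

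**Figure D4:**
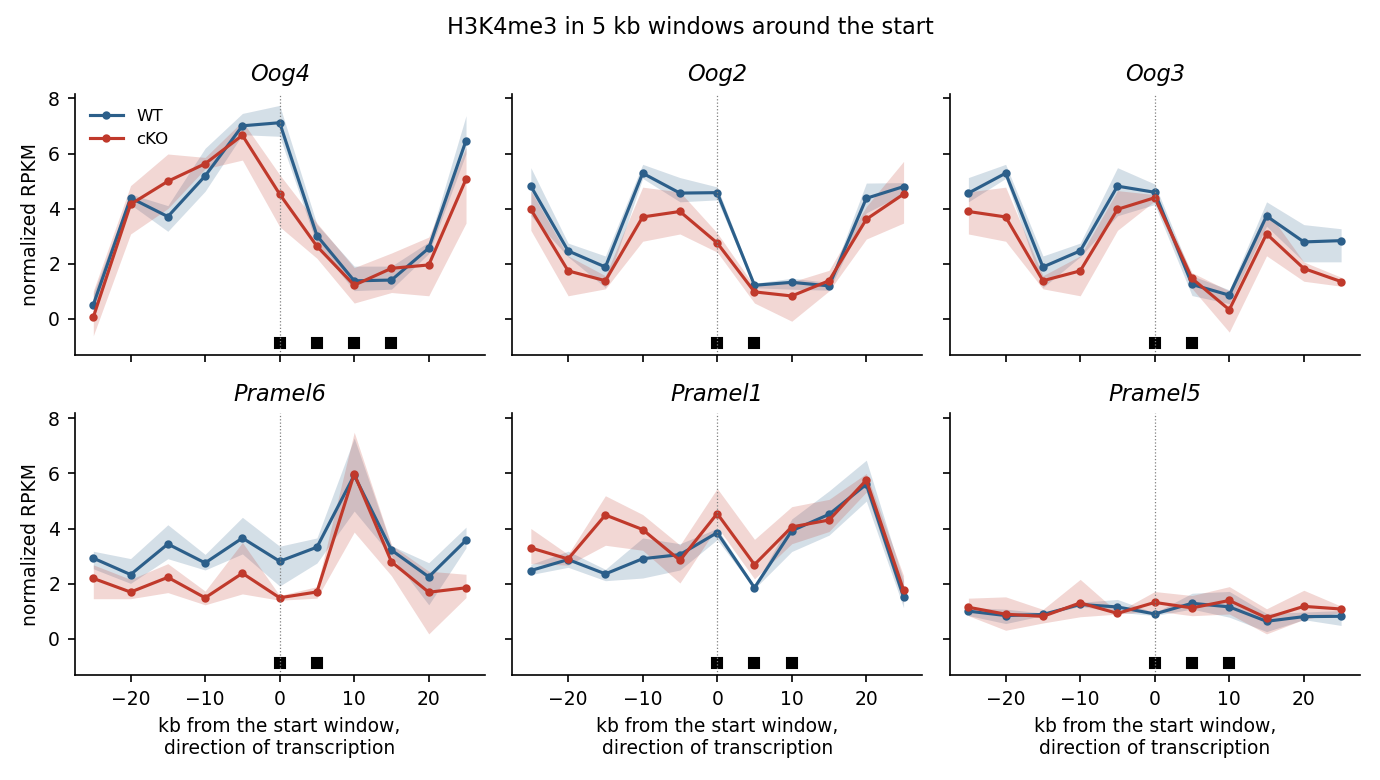
H3K4me3 in normalized RPKM in 5 kb windows from 25 kb upstream to 25 kb downstream of the start window of 6 genes, along the direction of transcription (lines, group means; shading, range over 3 libraries; black squares, windows assigned to the gene). At Oog4 the genotypes part in the start window (4.52 in cKO, 7.12 in WT) and not 5 kb upstream, in the Oog3 start window they overlap, and at Pramel6 cKO runs below WT, they meet at 10 kb and part again at 25 kb.

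The cluster on chromosome 4, from the first Pramel1 window to the start window of Pramef12 (chr4:143390001-144410000), covered 204 windows. Of these, 47 (23.0%) had an input under 0.5 times the median window. The cluster averaged 2.22, 1.59 and 2.08 in cKO and 2.27, 2.25 and 2.50 in WT, with 26 windows (12.7%) below, 7 (3.43%) above and 2 called lower by limma, beside 9.95%, 9.88% and 1.02% of all windows. The 2 called windows were the starts of Oog2 and Pramef12. The low windows take part in this mean through the library offsets, so it is not a measure of the genes alone.

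Of 44 other PRAME family genes known to RefSeq by symbol or synonym, 28 were matched to the table and 26 had a start window, 18 of them on chromosome 4, 6 on chromosome 5 and 2 on the X chromosome. In 7 of the 26 the input was under 0.5 times the median window. Of the remaining 19, the cKO mean was lower in 17 in normalized RPKM and in 17 in RPM (16 in both), and the median difference in normalized RPKM was -0.58. Over all start windows the median difference was -0.01, and 24646 of 48576 had a lower cKO mean in normalized RPKM. That share was not computed in RPM. All cKO libraries were below all WT libraries in 6 of them in normalized RPKM and in 5 in RPM, with 2 (Pramef12 and Gm13103) on both scales, beside 9.38% and 7.48% of all start windows. In normalized RPKM none (0) was above. The lowest differences were at Pramef12, C87414 and Gm13103. Pramef12 had 4.83, 5.45 and 5.18 in cKO and 6.83, 7.65 and 7.22 in WT, did not overlap, and was the 1 start of this group called by limma. C87414 had 3.32 ± 1.55 against 5.24 ± 1.75 and overlapped, whereas Gm13103 had 2.37 ± 0.79 against 4.19 ± 0.45 and did not. The highest differences were at Gm12794 (0.19), Pramef8 (0.15) and C87499 (-0.11), all overlapping. In normalized RPKM, Pramel1 and Pramel5 had the highest differences of all the family starts with a value, and Oog4 the lowest. In RPM the order at the top changed, as Pramel1 had 4.06 in cKO against 3.93 in WT and Gm12794 1.80 against 1.48.

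**Figure D5:**
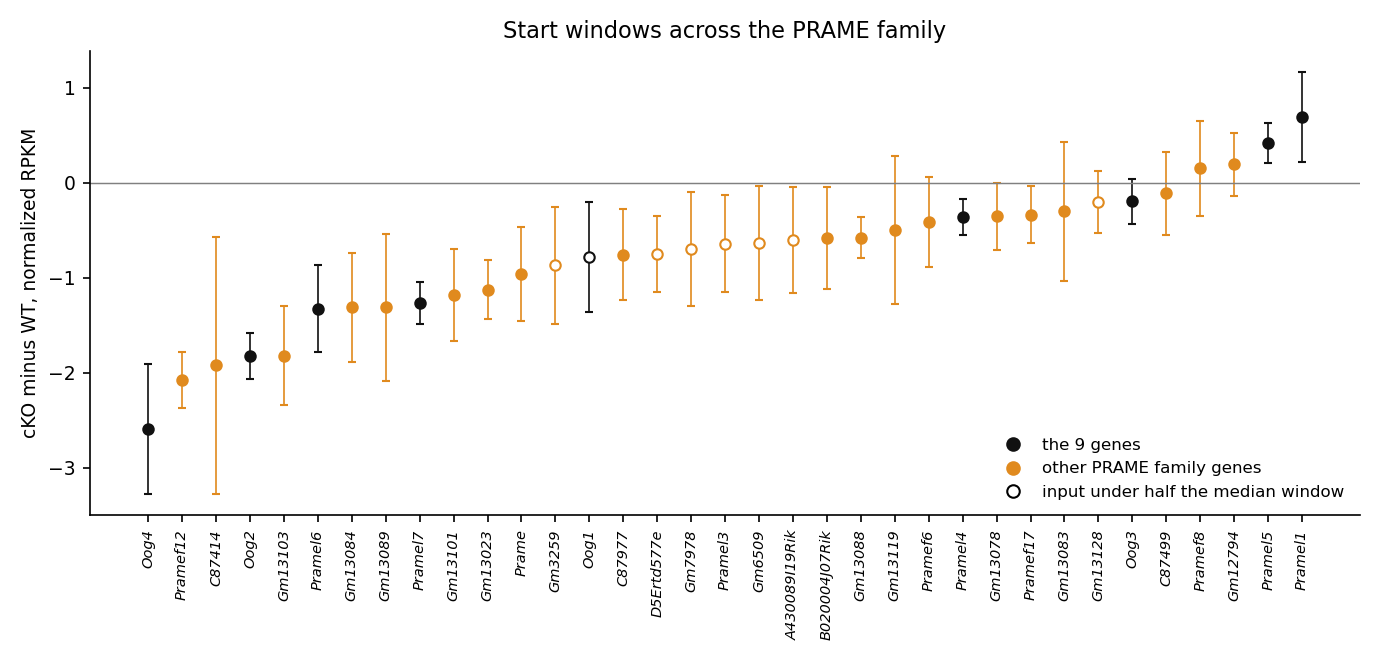
Difference of the cKO and WT means in normalized RPKM at the start window of the 9 genes (black) and 26 other PRAME family genes (orange), in order; error bars are the standard error of the difference (n = 3 in each group), and open symbols mark windows with input under 0.5 times the median window. Oog4 (-2.59) is at the low end, followed by Pramef12 (-2.08), and Pramel5 (0.42) and Pramel1 (0.69) are at the high end.

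The start window of Oog4 had both the highest WT level and the largest difference of the 9. The annotated genes whose start windows lay nearest to it over the 6 H3K4me3 libraries were Usp28 (distance 0.586; 4.73 in cKO, 7.08 in WT), Trim13 (0.977; 4.51 and 6.94) and Gm16596 (0.980; 4.12 and 7.27). Distances are Euclidean, in normalized RPKM. Across the 24 windows Spearman's rho between the CpG count and the WT level was -0.01, a description over windows of the same libraries. Apart from Pramel1, the windows held 10 to 34 CpGs, the start of Oog4 14 and that of Pramel5 19, against a median of 34 over all windows.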

How the data were processed

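H3K4me3 and input libraries were trimmed with Trim Galore 0.4.2 and aligned to GRCm38 with Bowtie2 2.2.9, per the labels and the study's methods, and alignments of low mapping quality were removed. The authors deposited H3K4me3 in 5 kb windows as a score, enrichment-normalized RPKM made in SeqMonk, after leaving out windows of very high input and a poorly enriched library of each genotype. Input was deposited as a signal proportional to reads. Each column was a linear function of whole reads (100% of values within 0.05 reads), from which reads, RPM and the value at no reads were recovered. The members and all lists were chosen with earlier results of these data known. All members are named, and of the other family genes the 3 highest and 3 lowest differences. Values were averaged over libraries, and limma 3.58.1 (R 4.3.3) was fitted to all windows without a replicate block (Benjamini-Hochberg), with edgeR 4.0.16 quasi-likelihood tests on the recovered reads as an alternative. Start windows came from GENCODE, in the same genome build, and promoters from RefSeq. Input was compared by an exact permutation test (scipy 1.17.1). Interval estimates were not made, and read counts cover counting error only.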

Additional observations from a re-analysis of the deposited data

How the results depend on the processing

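The count of member windows called by limma, 1 in the fit reported, depended on most choices and was always of windows lower in the cKO. It was 0 at an adjusted p under 0.01, on log2(value + 1) and after quantile normalization, in which limma called 0, 0 and 1 of all windows and 6, 6 and 8 member windows had an unadjusted p under 0.05, as did 14.9%, 13.4% and 16.7% of all windows. It was 2 with an intensity trend, with windows of at least 1 read (1.48% of 508600 windows called) and with edgeR, and 0 to 2 when each library was left out in turn, where limma called 0 to 17979 windows in all. The 2 came without cKO replicate 1, the fit that called 17979. In the other 5 of these fits, 4 to 6 member windows had an unadjusted p under 0.05, as did 9.95% to 13.2% of all windows. Replicate numbers 1 and 4 occur in both genotypes, but no label says that they pair, and same-numbered deviations correlated at 0.32 and 0.02 over all windows. With the number as a replicate block, 33433 windows in all were called in place of 5539, and 4 member windows, at Oog2, Oog4 and Pramel6. In that fit cKO replicate 3 and WT replicate 2 have no partner, so its differences rest on replicates 1 and 4 alone. Its standard error was the same, 0.476, in every member window, so it is not a like-for-like alternative.

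The mean difference over member windows (-0.46) was -0.35 as a median, -0.26 without chromosome 2, -0.59 without Pramel1 and Oog4, and -0.59 without Pramel4, Oog3, Oog2 and Pramel5. In an alternative added after the data were seen it was -0.55 without windows over 20% copied. That over starts (-0.81) was -0.62 with both neighbours included. Leaving out a library gave -0.50 to -0.43 and -0.87 to -0.71. The cause of these shifts was not tested. The mean of Oog3 (0.01) turned to -0.01 without cKO replicate 1, -0.06 without cKO replicate 4 and -0.20 without WT replicate 2, and that of Pramel4 (-0.41) to 0.013 as log2(RPM + 0.5). The difference of Pramel1 (0.56) was 0.13 without cKO replicate 3. Member windows held 0 to 211 reads in a library, and differences at windows of few reads rest on little.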
